A study of Mus musculus with 10 samples.

Results

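Mouse embryonic stem cells (ESC) in which DIDO3 lost its C-terminal part and HA-tagged DIDO3 was put back (DIDO3ΔCT+HADIDO3) were compared with WT ESC. The aim was to see which genes and gene families differed from WT in the reconstituted cells. None of the libraries came from DIDO3ΔCT cells without HA-tagged DIDO3, so levels before reconstitution are not known. The comparison used 6 of the 9 libraries of the study, 3 per group, and every feature of the StringTie table that shares no base with another feature on its strand. A feature is the 3′UTR of a UCSC transcript in mm10 with 2 kb added downstream, and 15615 of the 43031 features met that rule. Of these, 10900 had a TPM (a length-corrected share of the library) above 0 in all 6 libraries and were tested. Where a gene had several such features, its most abundant one stood for the gene, which gave 8883 genes.

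All groups were ESC labelled as strain C57BL/6, grown in serum and LIF either on mitomycin C-treated fibroblast feeders (MEF) or on gelatin, and the labels do not say which surface a sample had. WT cells carry the genotype label wild type. DIDO3ΔCT+HADIDO3 cells carry the C-terminal deletion and express DIDO3 with an HA tag, so that the group differs from WT in at least the deletion and the added protein. The groups also differed in Y-linked RNA and in the median level of chromosome 1 (below). Effects of the deletion, of the added protein and of any other difference between the cells cannot be told apart. DIDO3ΔE16 cells lack the exon 16 that only DIDO3 uses, were derived from a floxed allele through SOX2-Cre, and serve only to place the level of named genes. A single library stands for WT replicates 2 and 3, here called WT 2-3. Nothing in the labels says that replicates came from separate cultures or clones, so the p-values measure the spread between these libraries, which may be technical.

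Dido1 encodes nested proteins with a common N-terminal part that holds a PHD finger, a reader of methylated histone H3. DIDO3 is the longest of them and adds a TFIIS-like domain, a SPOC domain and a long C-terminal tail, and it is known to associate with RNA polymerase II. ESC in serum and LIF are a mixed culture: most cells hold a naive pluripotent state maintained by LIF and opposed by autocrine FGF4 and ERK signalling, and minor fractions express genes of the primitive endoderm or of the early cleavage embryo.

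Dido1 was examined first as a check of the labels. Its most distal feature, the only one of the gene that shares no base on its strand (chr2:180655963-180659338, reverse strand), had 17.9, 16.8 and 13.7 TPM in WT and 12.1, 11.5 and 10.9 TPM in DIDO3ΔCT+HADIDO3, against 0.546, 0.511 and 0.307 TPM in DIDO3ΔE16. The DIDO3ΔCT+HADIDO3 libraries lay below all WT libraries and far above all DIDO3ΔE16 libraries. The log2 fold change against WT was -0.57 (SE 0.12, limma adjusted p = 0.0242, Benjamini-Hochberg), which did not reach the fold required for a call. Against DIDO3ΔE16 the difference was 4.38 (limma adjusted p = 6.31e-06). This feature held 20.4% of the TPM of the gene, and RNA of the resident gene and of the HA-tagged copy cannot be told apart in it. The middle 3′ end, whose features share bases, summed to 4.78 to 4.9 TPM in WT and 7.3 to 8.65 TPM in DIDO3ΔCT+HADIDO3. In DIDO3ΔE16 it had 81.7 to 96.1 TPM. The proximal 3′ end had 48.5 to 51.6, 43.8 to 46.6 and 6.16 to 7.05 TPM in the same order of groups. At each 3′ end DIDO3ΔCT+HADIDO3 was nearer to WT than to DIDO3ΔE16, so these values alone do not show the C-terminal deletion.

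The libraries held 1.946 to 2.265 Gb of bases in features in WT and 2.147 to 2.615 Gb in DIDO3ΔCT+HADIDO3, and between 12123 and 12549 of the non-sharing features had a TPM above 0. WT 1 and WT 4 were read on flow cells with the prefix C7A9, all other libraries on flow cells with the prefix C79M. Y-linked genes summed to 50.3, 44.1 and 38.1 TPM in WT but 0.01, 0.019 and 0.043 TPM in DIDO3ΔCT+HADIDO3, while DIDO3ΔE16 libraries held 71.7, 73 and 79.8 TPM, so Y-linked RNA and genotype cannot be told apart here. All 12 ESC markers were above 0 in every WT library, and they summed to 5655 to 6701 TPM in WT and 5743 to 7652 TPM in DIDO3ΔCT+HADIDO3. Single libraries set these ranges in part: summed over its features, Nanog had 664, 676 and 3.1 TPM in WT, Sall4 had 286, 4.72 and 269.7 TPM in WT, and Esrrb varied widely within both groups. The 16 fibroblast markers summed to 149 to 186 TPM in WT and 141 to 146 TPM in DIDO3ΔCT+HADIDO3. Among them, Col3a1 was at 0 in all DIDO3ΔCT+HADIDO3 libraries, and Dcn and Lum were at 0 in all WT libraries. Members moved in opposite directions within these sums. Thy1 had 18.1 to 19.7 TPM in WT and 52.2 to 56.1 TPM in DIDO3ΔCT+HADIDO3, and Pdgfrb 4.99 to 5.28 and 38.5 to 41.8 TPM. Col1a2 had 34.6 to 40.2 and 0.432 to 0.669 TPM. Lox had 37.9, 5.97 and 38.5 TPM in WT and at most 0.758 TPM in DIDO3ΔCT+HADIDO3. The 6 primitive endoderm markers summed to 81.5 to 108 TPM in WT and 30.7 to 34.5 TPM in DIDO3ΔCT+HADIDO3, and the 6 trophoblast markers to 45.8 to 48.9 and 20.6 to 23 TPM, of which Plet1 made up 37 to 37.9 and 9.39 to 10.3 TPM, while Hand1 had 2.72 to 3.15 TPM in WT and 4.62 to 5.3 TPM in DIDO3ΔCT+HADIDO3. In bulk RNA, fewer cells of a type and less RNA per cell cannot be told apart.

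Calls required a shift by 0.7 or more on the log2 scale (1.62-fold), up or down, together with a limma adjusted p below 0.05, on log2(TPM + 0.1). By this rule 2063 of 10900 features were called (18.9%): 1249 were higher in DIDO3ΔCT+HADIDO3 (11.5%) and 814 lower (7.47%). Of the features off chromosomes 1 and 14, 1805 of 9831 were called (18.4%), 1058 higher and 747 lower. All 2063 called features had groups that did not overlap, as did 60.5% of all tested features. By genes, 1004 of 8883 were higher (11.3%) and 699 lower (7.87%), with a median log2 fold change of -0.002; off chromosomes 1 and 14 these shares were 10.7% and 7.97%. The median absolute log2 fold change of called features was 1.19, and 156 features rose and 149 fell by at least 4-fold. A fold change on this scale understates that of genes with low TPM. With WT 2-3 as the only WT library, so that all 4 libraries came from C79M flow cells, 1178 features were called (735 higher and 443 lower), of which 1035 were also called with 6 libraries; there the lone WT library is assumed to vary like the others.

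Features called higher were mostly of low abundance, with a median of 2.29 TPM in WT and 6.18 TPM in DIDO3ΔCT+HADIDO3. Features called lower had a median of 9.64 TPM in WT, close to the median of all tested features (9.63), and 3.61 TPM in DIDO3ΔCT+HADIDO3. Of the 3510 features with a mean above 1 and up to 10 TPM over the 6 libraries, 19.5% were higher and 9.74% lower. Among the 1301 features above 100 TPM the order turned, with 1.69% higher and 6.15% lower.

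**Figure D1:**
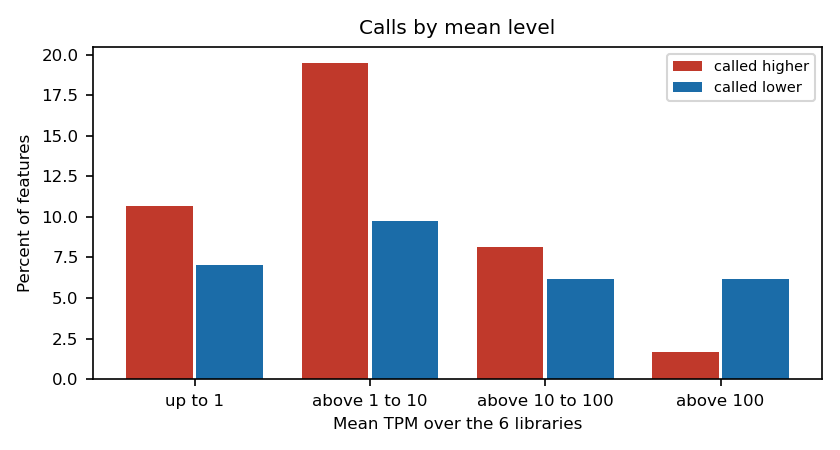
Share of the tested features called higher (red) and lower (blue) in DIDO3ΔCT+HADIDO3, in percent, by the mean TPM of the feature over the 6 libraries. Calls of higher features peak at 19.5% between 1 and 10 TPM and drop to 1.69% above 100 TPM, where 6.15% were lower.

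Chromosome 1 stood apart from the other chromosomes. Its 634 features had a median log2 difference from the WT mean of 0.3 in each of the DIDO3ΔCT+HADIDO3 libraries and at most 0.01 in the WT libraries, and 72.7% of them had a log2 fold change above 0. The shift was present along the chromosome: in windows of 30 Mb the median lay between 0.21 and 0.43. On this chromosome 122 features were called higher and 30 lower (24% called). Chromosome 14, with 435 features, had a median of 0.06 and 69 higher and 37 lower calls (24.4%). The X chromosome had a median of -0.07, with 31 higher and 43 lower calls among 375 features.

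**Figure D2:**
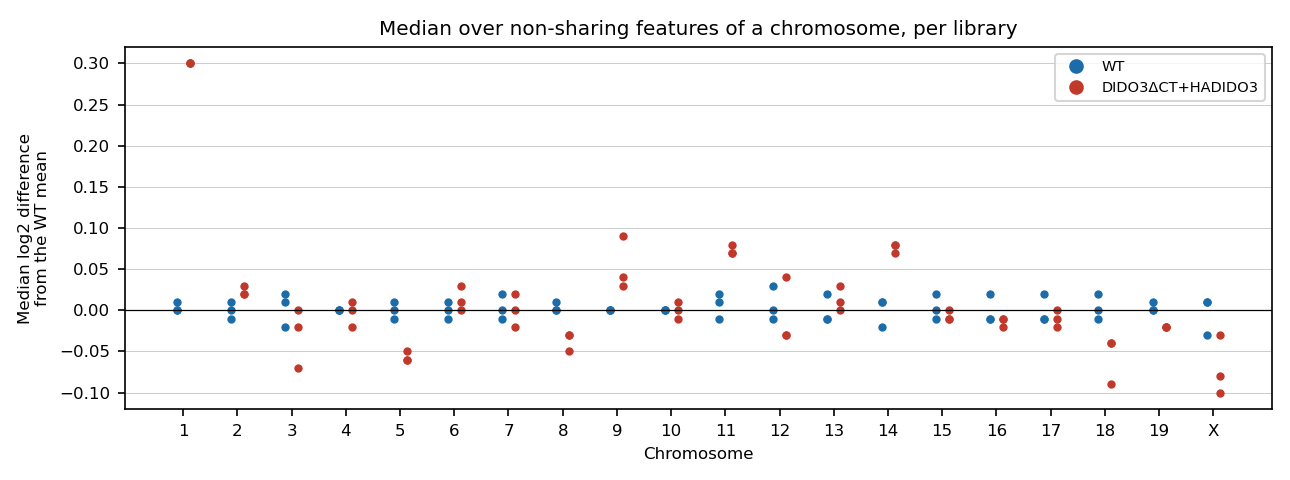
Median log2 difference of each library from the WT mean over the non-sharing features of each chromosome (WT in blue, DIDO3ΔCT+HADIDO3 in red). On chromosome 1 the DIDO3ΔCT+HADIDO3 libraries lie on top of one another at 0.3, and on chromosome 14 they lie between 0.07 and 0.08.

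On chromosome 14 the calls were densest in its distal part. Between 90 and 105 Mb, 22 of 25 features were higher and the median log2 fold change was 1.21, with library medians of 1.23, 1.2 and 1.24. Between 120 and 135 Mb the median was -0.61, and 9 of 20 features were lower and 2 higher. A run of 13 neighbouring features of 8 genes, from Klf12 to Rnf219, was higher without interruption (log2 fold changes of 0.83 to 2.10), near a run over Pibf1 and a minor feature of Klf5 (1.12 to 1.53). Klf12, a transcriptional repressor of the Krüppel-like family, had 15, 14.8 and 11.9 TPM in WT and 33.5, 32.4 and 34.7 TPM in DIDO3ΔCT+HADIDO3 (log2 fold change 1.18, SE 0.10, limma adjusted p = 0.00202). Pou4f1, a POU homeodomain factor of sensory neurons, had 6.17, 3.96 and 4.55 TPM in WT and 18.7, 20.2 and 20.5 TPM in DIDO3ΔCT+HADIDO3 (log2 fold change 1.92, SE 0.17, limma adjusted p = 0.00209). Both genes were higher in every DIDO3ΔCT+HADIDO3 library than in any WT library. Lmo7, a scaffold of cell junctions, and Mycbp2, a large ubiquitin ligase, also rose (log2 fold changes 1.32 and 1.23). The most abundant feature of Klf5, a factor of naive pluripotency, had a log2 fold change of 0.58 (limma adjusted p = 0.00326), under the fold required. Hs6st3, a heparan sulfate sulfotransferase gene between these windows, fell by 1.3 on the log2 scale (limma adjusted p = 0.0113). These genes were chosen after their values were seen.

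The largest increases off these chromosomes included genes that were close to undetected in WT. BB014433, a gene without a known function, had 0.101, 0.118 and 0.232 TPM in WT and 30.3, 26.6 and 27.4 TPM in DIDO3ΔCT+HADIDO3 (log2 fold change 6.77, SE 0.24, limma adjusted p = 0.000244). Kbtbd11, a kelch-repeat adaptor of ubiquitin ligases, had 1.9, 1.93 and 1.72 TPM in WT and 66.8, 66.3 and 66.5 TPM in DIDO3ΔCT+HADIDO3 (log2 fold change 5.0, SE 0.07, limma adjusted p = 7.47e-05). All DIDO3ΔCT+HADIDO3 libraries were far above all WT libraries for both genes, and the replicates of a group were close to each other. C030037D09Rik, a noncoding transcript, had 0.718, 0.855 and 0.741 TPM in WT and 23.2, 26.1 and 30.1 TPM in DIDO3ΔCT+HADIDO3 (log2 fold change 4.84, SE 0.13, limma adjusted p = 0.000147). Tex13b, an X-linked gene of the male germ line, had 2.5, 1.46 and 1.91 TPM in WT and 49.7, 53.6 and 51.6 TPM in DIDO3ΔCT+HADIDO3 (log2 fold change 4.59, SE 0.20, limma adjusted p = 0.000375). Spesp1, a sperm equatorial segment protein, had 0.061, 0.107 and 0.07 TPM in WT and 2.12, 1.89 and 1.96 TPM in DIDO3ΔCT+HADIDO3 (log2 fold change 3.48, SE 0.17, limma adjusted p = 0.000455). Of these genes Tex13b and Spesp1 are known from the testis, and complete separation of the groups was required by the rule that chose them all. Rpl39l, the testis-enriched copy of a ribosomal protein, had 1.88, 1.88 and 2.66 TPM in WT and 26.4, 25.1 and 23.7 TPM in DIDO3ΔCT+HADIDO3 (log2 fold change 3.41, SE 0.17, limma adjusted p = 0.000512), and it has close copies among which reads may be split.

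The others of this set were Mall, a membrane-raft protein (0.272 to 7.88 TPM, log2 fold change 4.38, limma adjusted p = 0.000929), Mettl7a3, a predicted methyltransferase with near-identical neighbours (0.157 to 5.7 TPM, log2 fold change 4.44, limma adjusted p = 0.000442), and Lrrc74a, a leucine-rich repeat protein (0.219 to 4.26 TPM, log2 fold change 3.83, limma adjusted p = 0.00453). For 3 more genes the non-sharing feature was a minor part of the gene. Apobec3, a cytidine deaminase that restricts retroviruses, rose by 3.85 at a feature with 4.74% of its TPM, against 0.37 in the summed TPM of the gene. Sfi1, a centrosome protein, rose by 3.64 at a feature with 5.43% of its TPM, against 0.79 in the sum. Stard13, a GTPase-activating protein, rose by 3.43 at a feature with 47.9% of its TPM, against 1.44 in the sum. On chromosomes 1 and 14 the largest increases were Nuf2, a kinetochore subunit (3.49, at 7.9% of the TPM of the gene, whose sum was not called), Atp2b4, a plasma membrane calcium pump (3.32, at 10.7% of the TPM of the gene), Slc11a1, a metal transporter of phagosomes (3.23), and Crocc2, a rootletin-like protein (3.12), all as log2 fold changes and all on chromosome 1.

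**Figure D3:**
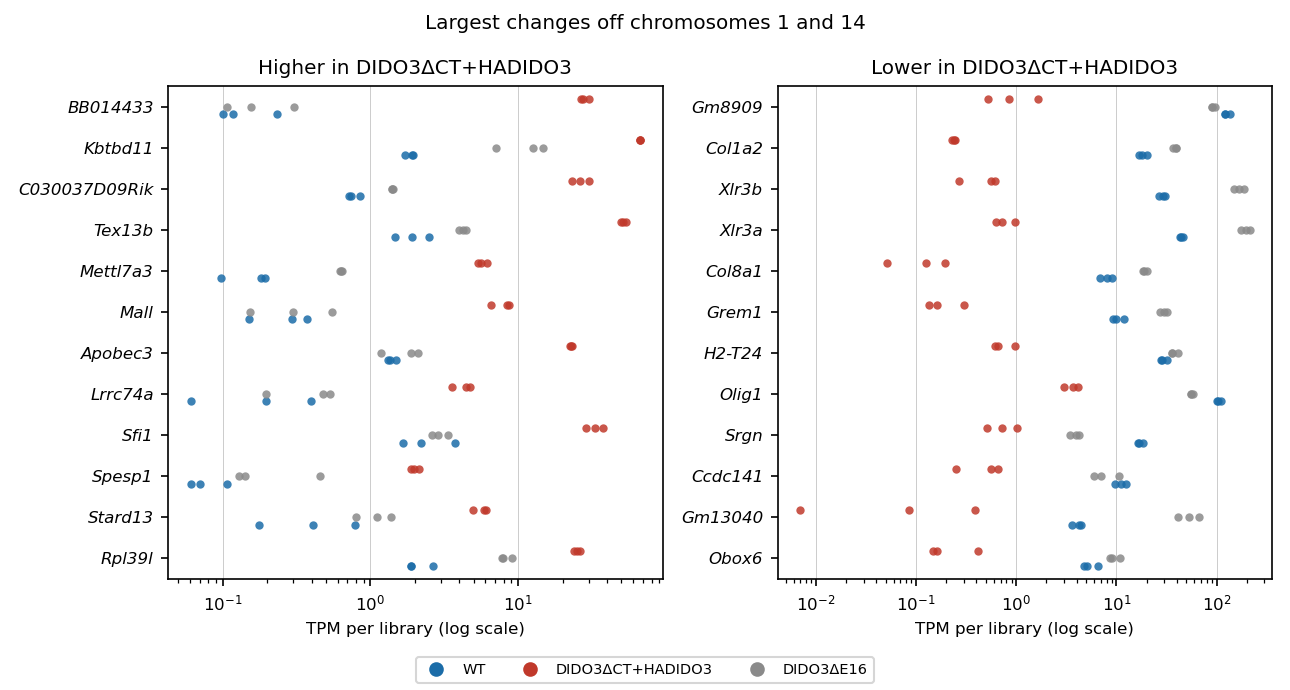
TPM in each library on a log scale for the 12 largest increases (left) and 12 largest decreases (right) off chromosomes 1 and 14, with WT in blue, DIDO3ΔCT+HADIDO3 in red and DIDO3ΔE16 in grey. Groups that do not overlap were required by the rule that chose these genes, whose changes run from BB014433 (log2 fold change 6.77) to Gm8909 (-7.06).

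The largest decrease was Gm8909, a class I histocompatibility gene of chromosome 17, with 137, 120.4 and 120.0 TPM in WT and 0.838, 0.518 and 1.65 TPM in DIDO3ΔCT+HADIDO3 (log2 fold change -7.06, SE 0.39, limma adjusted p = 0.000644); it overlaps a feature on the opposite strand and belongs to a family of near-identical copies. H2-T24, a nonclassical class I gene of the same family, had 32.1, 28.2 and 27.9 TPM in WT and 0.973, 0.661 and 0.618 TPM in DIDO3ΔCT+HADIDO3 (log2 fold change -5.23, SE 0.20, limma adjusted p = 0.000269). Both were lower in every DIDO3ΔCT+HADIDO3 library than in any WT library. Olig1, a basic helix-loop-helix factor of the oligodendrocyte lineage, had 102, 111 and 103 TPM in WT and 2.97, 3.65 and 4.13 TPM in DIDO3ΔCT+HADIDO3 (log2 fold change -4.95, SE 0.12, limma adjusted p = 0.000127). Grem1, a secreted antagonist of BMP, had 9.99, 11.9 and 9.2 TPM in WT and 0.301, 0.162 and 0.134 TPM in DIDO3ΔCT+HADIDO3 (log2 fold change -5.24, SE 0.26, limma adjusted p = 0.0005). Srgn, the core protein of a secretory-granule proteoglycan, had 16.5, 16.8 and 18.3 TPM in WT and 0.724, 0.514 and 1.01 TPM in DIDO3ΔCT+HADIDO3 (log2 fold change -4.48, SE 0.24, limma adjusted p = 0.000553). Each of the 3 was lower in every library of DIDO3ΔCT+HADIDO3 than in any WT library, and Olig1 remained above 1 TPM in all of them.

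Xlr3a and Xlr3b are nearby X-linked genes that encode lymphocyte-regulated proteins related to the synaptonemal complex. Xlr3a had 42.8, 43.7 and 45.8 TPM in WT and 0.624, 0.978 and 0.727 TPM in DIDO3ΔCT+HADIDO3 (log2 fold change -5.77, SE 0.17, limma adjusted p = 0.000152). Xlr3b had 26.6, 29 and 30.7 TPM in WT and 0.269, 0.556 and 0.616 TPM in DIDO3ΔCT+HADIDO3 (log2 fold change -5.78, SE 0.28, limma adjusted p = 0.000467). In DIDO3ΔE16 they had 213, 196 and 177 and 187, 167 and 149 TPM, above WT. Xlr4a, which was chosen after its values were seen, fell from 3.63 to 0.152 TPM (log2 fold change -4.02, limma adjusted p = 0.00197). Reads may be divided among these copies, whose annotated 3′ ends are nearly the same. Also lower were Ccdc141, a centrosomal coiled-coil protein (11.1 to 0.49 TPM, log2 fold change -4.40, limma adjusted p = 0.00125), Obox6, an oocyte homeobox gene (5.44 to 0.241 TPM, log2 fold change -4.17, limma adjusted p = 0.00181), and Gm13040, a predicted gene in a run of 4 falling genes on chromosome 4 (4.09 to 0.16 TPM, log2 fold change -4.36, limma adjusted p = 0.0061). On chromosome 1, Aim2, a sensor of cytosolic DNA, had 89.6, 94 and 81.4 TPM in WT and 2.7, 3.4 and 2.5 TPM in DIDO3ΔCT+HADIDO3 (log2 fold change -5.0, SE 0.14, limma adjusted p = 0.000147). Ptgs2, the inducible cyclooxygenase, fell from 9.9 to 0.669 TPM (log2 fold change -3.80, limma adjusted p = 0.000491).

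The annotated 3′ ends of genes on both sides of the comparison are given because the libraries were quantified there, and each line holds the last 30 bases of the transcript, 5′ to 3′ on the RNA strand, from the GENCODE M21 transcripts of GRCm38 (mm10), with the polyadenylation signal AATAAA in capitals (the copy nearest the end where copies overlap). The genes shown all carry it, which many named genes do not.
C030037D09Rik (chr11:88722571-88722600, + strand): agaaaagaatacatAATAAAaccctgtctc
Tex13b (chrX:140808307-140808336, - strand): tacaaaAATAAAagttatttacccacttga
Spesp1 (chr9:62270729-62270758, - strand): atcaAATAAAgttcacgcattgctactgcc
Zscan4c (chr7:11010518-11010547, + strand): gaataataaataAATAAAtaatcaacaatt
Srgn (chr10:62494428-62494457, - strand): agaaAATAAAgtgaaacacagtggcctcct
Cubn (chr2:13276338-13276367, - strand): agtacgggtAATAAAcatttcttaaaacca
Col1a1 (chr11:94953013-94953042, + strand): gctggAATAAAgcatgtggaaatgacccaa
S100a4 (chr3:90606016-90606045, + strand): caaattcAATAAAaggttttgaaactatta
Xlr3a (chrX:73086293-73086322, - strand): ttgatttAATAAAcatgaaatagtttcaga
Xlr3b (chrX:73202901-73202930, + strand): ttgatttAATAAAcatgaaatagtttcaga
Xlr4a (chrX:73074345-73074374, - strand): gtttgatttAATAAAcatgaaatagtttca
The ends of Xlr3a and Xlr3b carry the same letters, and that of Xlr4a is shifted by a few bases. Over the genes whose 3′ end matched a transcript end, the last 30 bases on the transcript strand held AATAAA in 41.9% of 5170 tested genes, in 40.2% of the 639 genes called higher and in 51.1% of the 354 genes called lower. ATTAAA without AATAAA was found in 10.9%, 10.6% and 10.2%. A match of letters is a description and does not mark a used site.

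Changes were then counted over 72 gene lists. The lists described here are given by the genes tested and those called higher and lower, most with the median log2 fold change, to be read beside 11.3% higher, 7.87% lower and a median of -0.002 over all genes. These shares were not matched to the abundance of a list. Of features with a mean above 1 and up to 10 TPM, 19.5% were higher and 9.74% lower. Above 100 TPM these were 1.69% and 6.15%. How far abundance accounts for the calls of a list was not tested.

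**Figure D4:**
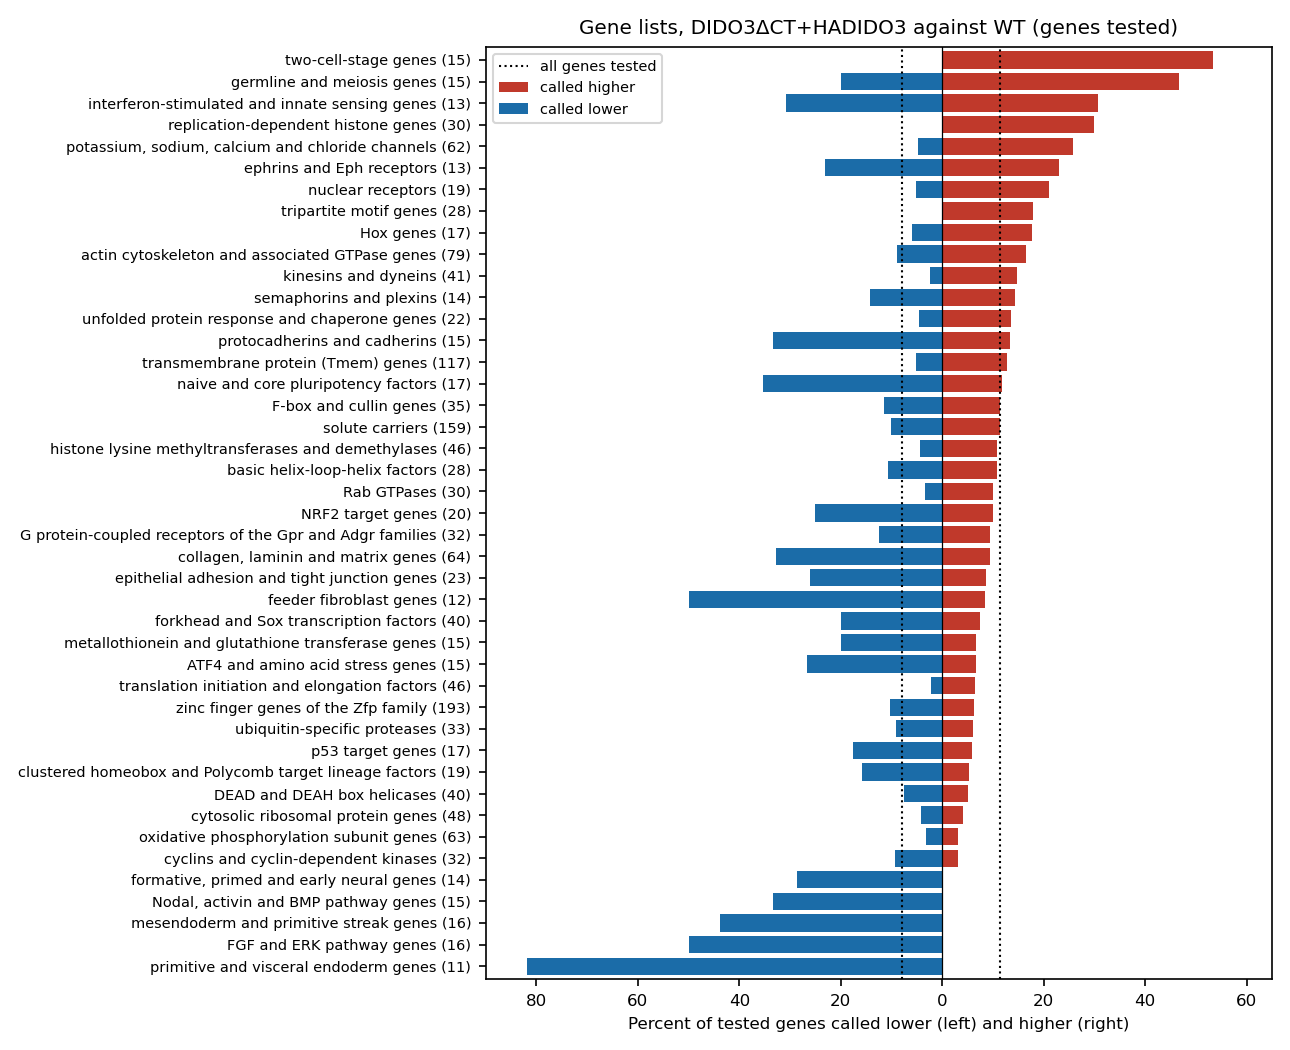
Percent of the tested genes of each list called lower (blue, left) and higher (red, right) in DIDO3ΔCT+HADIDO3, for the lists with at least 10 genes tested and at least 4 called, with the number tested in brackets and the shares over all genes tested as dotted lines. The early cleavage (two-cell-stage) list reaches farthest to the right (8 of 15) and the primitive and visceral endoderm list farthest to the left (9 of 11).

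Genes of the primitive and visceral endoderm, the extraembryonic layer that secretes basement membrane and takes up nutrients, had 0 higher and 9 lower calls among 11 tested (median -1.32); off chromosomes 1 and 14 these were 8 of 9 (median -1.53). Cubn, the cubilin receptor of visceral endoderm, had 9.59, 10.4 and 11.7 TPM in WT and 0.909, 0.41 and 0.487 TPM in DIDO3ΔCT+HADIDO3 (log2 fold change -4.07, SE 0.30, limma adjusted p = 0.0013). Its endocytic partner Lrp2 (megalin) had 14.8, 14.4 and 15.8 TPM in WT and 3.27, 3.67 and 3.82 TPM in DIDO3ΔCT+HADIDO3 (log2 fold change -2.13, SE 0.09, limma adjusted p = 0.000375). In both receptors all DIDO3ΔCT+HADIDO3 libraries lay below all WT libraries. Col4a1 and Col4a2, the basement-membrane collagens, fell from 135 to 37.1 TPM (log2 fold change -1.96, limma adjusted p = 0.000248) and from 87.8 to 25 TPM (log2 fold change -1.90, limma adjusted p = 0.000512). The laminin genes Lamb1 (65 to 24 TPM, 39.8% of the TPM of the gene) and Lama1 (23.3 to 12.2 TPM) fell as well. The transcription factors Gata6 (12.8, 12.3 and 13.6 against 7.04, 6.29 and 7.6 TPM) and Sox7 (9.1, 9.71 and 9.99 against 4.14, 3.65 and 4.38 TPM) and the adaptor Dab2 (7.45 to 3.53 TPM) were lower in all DIDO3ΔCT+HADIDO3 libraries (log2 fold changes -0.97, -1.32 and -1.17, the last at a feature with 40.2% of the TPM of the gene). In DIDO3ΔE16 the levels of Gata6 were 3.75, 3.99 and 6.23 TPM, also below WT, and those of Cubn were 2.55, 2.67 and 2.29 TPM.

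Pathway genes of FGF and ERK signalling, which drives ESC out of the naive state, had 0 higher and 8 lower calls among 16 tested (median -0.50; off chromosomes 1 and 14, 8 of 15 and -0.72). In summed TPM, over 33 genes of the list, 1 was higher and 9 were lower (median -0.25). The ligand Fgf4 had 671, 689 and 708 TPM in WT and 409, 403 and 400.1 TPM in DIDO3ΔCT+HADIDO3 (log2 fold change -0.87, SE 0.04, limma adjusted p = 0.000399). The receptor Fgfr2 had 1.64, 2.25 and 2.13 TPM in WT and 0.163, 0.179 and 0.394 TPM in DIDO3ΔCT+HADIDO3 at a feature with 22.7% of its TPM (log2 fold change -2.74, SE 0.31, limma adjusted p = 0.0038), and its summed TPM changed by -2.13. Ligand and receptor were thus both below every WT library. The immediate early targets Egr1 (98, 78 and 88.5 TPM in WT and 26.6, 34 and 34.1 TPM in DIDO3ΔCT+HADIDO3) and Fos (73.1, 63.5 and 74.8 TPM in WT and 25.9, 31.7 and 32 TPM in DIDO3ΔCT+HADIDO3) fell by 1.58 and 1.33 on the log2 scale (limma adjusted p = 0.00168 and 0.00164). The feedback inhibitors Spry4 (243 to 120.5 TPM) and Dusp6 (86 to 49.6 TPM) fell by 1.11 and 0.89, and the phosphatase Dusp4 (66.5 to 41.7 TPM) and the exchange factor Sos1 (43.9 to 28.5 TPM) were the remaining members called. With quantile normalization 6 members were called, and with a threshold of 1 on the log2 scale 4.

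**Figure D5:**
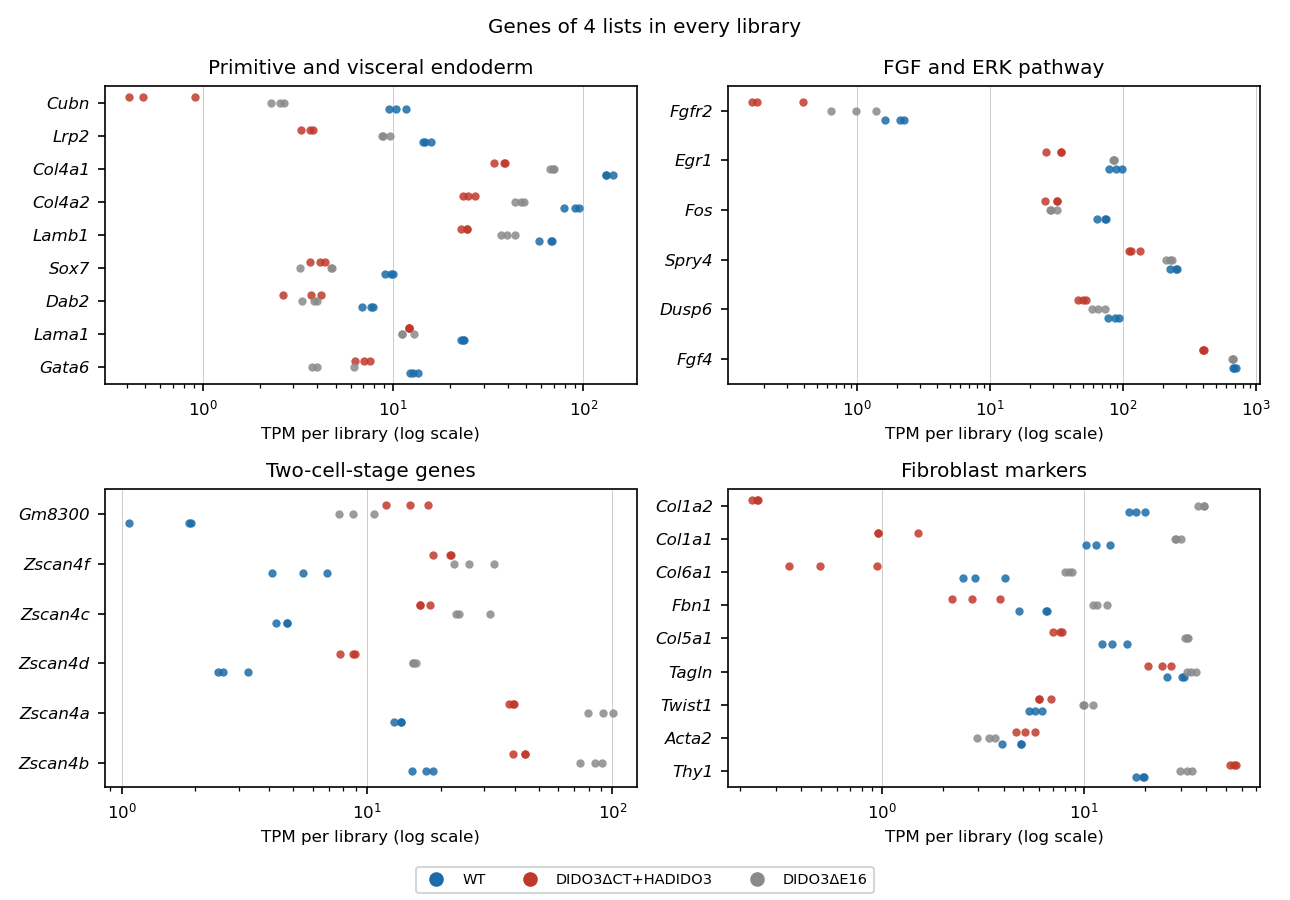
TPM in each library on a log scale for called genes of the endoderm list, of the FGF and ERK list and of the early cleavage list, and for the fibroblast markers tested (WT in blue, DIDO3ΔCT+HADIDO3 in red, DIDO3ΔE16 in grey). All endoderm and FGF genes shown are lower in DIDO3ΔCT+HADIDO3 than in WT and all cleavage-stage genes are higher, whereas Thy1 and Col1a2 move in opposite directions among the fibroblast markers. Members of the endoderm, FGF and cleavage lists that were not called are not shown. Among them, 3 FGF and ERK genes had a log2 fold change above 0 and 3 early cleavage genes had one below 0.

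The naive and core pluripotency list had 2 higher and 6 lower calls among 17 tested (median -0.15). Off chromosomes 1 and 14, 1 was higher and 6 were lower of 13 (median -0.63). Over 29 genes of the list in summed TPM, 2 were higher and 6 lower (median -0.12). Of the lower genes, Fgf4 was counted in the FGF and ERK list too, and Klf4 in the LIF, JAK and STAT3 list. Dppa3 (Stella), a maternal and naive-state gene, had 15.3, 17.2 and 15 TPM in WT and 3.36, 3.85 and 3.7 TPM in DIDO3ΔCT+HADIDO3 (log2 fold change -2.19, SE 0.10, limma adjusted p = 0.000397). Klf4, a LIF-dependent naive factor, had 444, 399 and 427 TPM in WT and 275, 271 and 266 TPM in DIDO3ΔCT+HADIDO3 (log2 fold change -0.74, SE 0.05, limma adjusted p = 0.000982). Lin28a, an RNA-binding protein that blocks let-7, fell from 739 to 444 TPM (log2 fold change -0.83, limma adjusted p = 0.000455). Prdm14, on chromosome 1, a repressor of FGF signalling and DNA methylation genes, rose from 28.6 to 57.4 TPM (log2 fold change 0.91, limma adjusted p = 0.000746). Esrrb, an orphan nuclear receptor of the naive network, rose by 0.85 at a feature with 3.99% of its TPM. Its summed TPM was 30.7, 1176 and 29.8 in WT and 1947, 51.4 and 1729 in DIDO3ΔCT+HADIDO3, so that the groups overlapped and the sum was not called (limma adjusted p = 0.446). By contrast the levels of Sox2 (-0.13), Klf2 (0.01), Tdgf1 (-0.02) and Dppa5a (-0.34) were not called (log2 fold changes; limma adjusted p from 0.0272 to 0.898). Zfp42 (Rex1), whose features share bases and were not tested, summed to 75.7, 75.3 and 74.2 TPM in WT and 268, 245 and 249 TPM in DIDO3ΔCT+HADIDO3. Most of the calls of this list were small: at a threshold of 1 on the log2 scale 1 was called, and quantile normalization gave 3 higher and 3 lower calls.

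Formative, primed and early neural genes had 0 higher and 4 lower calls among 14 tested, with a median of 0.17. With C79M flow cells only 2 were lower and the median was -0.05, as it was with the flow cell covariate (3 lower). In summed TPM 2 were higher and 5 lower of 20 (median -0.02). The called genes were Sox11, Zic2 and Pou3f1, transcription factors of the epiblast and early neural plate (53.4 to 20.3 TPM, 10 to 4.11 TPM and 18.1 to 9.66 TPM), and Cdh2, N-cadherin (3.41 to 2.15 TPM). Their log2 fold changes were -1.49, -1.37, -0.99 and -0.74. The neural markers Sox1 (0.42) and Nes (0.26) were not called. Mesendoderm and primitive streak genes had 0 higher and 7 lower calls among 16 (median -0.69; off chromosomes 1 and 14, 4 of 12). Gata6, Sox7 and Dab2 were counted in the endoderm list too, and Nodal, Lefty1 and Lefty2 in the Nodal list, so that Evx1 (0.557 to 0.135 TPM) was the only other call. With the flow cell family as a covariate 4 of them were called and with C79M flow cells only 3. The mesoderm marker T had 1.82, 2.41 and 2.29 TPM in WT and 2.06, 1.1 and 1.86 TPM in DIDO3ΔCT+HADIDO3 and was not called (log2 fold change -0.48, limma adjusted p = 0.282).

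Nodal signalling was represented by its ligand and both feedback antagonists. Nodal had 106, 103 and 109 TPM in WT and 66.4, 71.2 and 66.9 TPM in DIDO3ΔCT+HADIDO3 (log2 fold change -0.73, SE 0.05, limma adjusted p = 0.000991). Lefty1 had 83.6, 92.6 and 84.9 TPM in WT and 18.9, 16.5 and 17.1 TPM in DIDO3ΔCT+HADIDO3 (log2 fold change -2.40, SE 0.08, limma adjusted p = 0.000237). Lefty2 had 205, 206 and 175 TPM in WT and 104, 98.6 and 91.7 TPM in DIDO3ΔCT+HADIDO3 (log2 fold change -1.09, SE 0.09, limma adjusted p = 0.00158). The 3 genes were lower in all DIDO3ΔCT+HADIDO3 libraries, and both Lefty genes lie on chromosome 1, whose median moved up. Id3 and Id4, BMP targets that block differentiation factors, fell from 63.8 to 37.7 TPM and 16.4 to 6.28 TPM (log2 fold changes -0.85 and -1.48). In the whole Nodal, activin and BMP list, 0 were higher and 5 lower of 15 tested, and the median was 0.18. Off chromosomes 1 and 14, 3 of 12 were lower (median 0.23). With C79M flow cells only, 3 were called and the median was 0.01. The flow cell covariate gave 4 calls and the same median. Over 30 genes of the list in summed TPM, 1 was higher and 7 lower (median 0.04). In the Wnt list 1 of 22 was called: Dkk1, a secreted Wnt antagonist, had 2.73, 1.29 and 2.2 TPM in WT and 0.069, 0.165 and 0.131 TPM in DIDO3ΔCT+HADIDO3 (log2 fold change -3.33, SE 0.34, limma adjusted p = 0.00295). Over 36 genes of the Wnt list in summed TPM, 2 were higher and 5 lower (median -0.19). In the Hippo list 1 of 5 was called, the YAP target Ankrd1 (3.97 to 0.677 TPM, log2 fold change -2.48, limma adjusted p = 0.00199). The LIF, JAK and STAT3 list had 2 higher and 1 lower of 13; among the higher genes, Stat5a was read at a feature with 26% of its TPM, against a log2 fold change of 0.58 in the sum. Without scaling these calls were 3 higher and 0 lower.

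Genes of the early cleavage embryo, which a minor fraction of ESC expresses in bursts, had 8 higher and 0 lower calls among 15 tested (median 1.15), all off chromosomes 1 and 14. Tdpoz2 of the same list, at 1.33, 1.52 and 1.26 TPM in WT and 0.166, 0 and 0.096 TPM in DIDO3ΔCT+HADIDO3, was not tested because of its 0. The Zscan4 cluster on chromosome 7, which encodes factors active at zygotic genome activation and in telomere maintenance, formed a run of 6 higher genes with log2 fold changes of 1.22 to 1.83. Zscan4c had 4.72, 4.73 and 4.25 TPM in WT and 16.5, 16.4 and 18 TPM in DIDO3ΔCT+HADIDO3 (log2 fold change 1.78, SE 0.08, limma adjusted p = 0.000397). Zscan4f had 5.51, 4.11 and 6.86 TPM in WT and 18.6, 21.8 and 21.9 TPM in DIDO3ΔCT+HADIDO3 (log2 fold change 1.83, SE 0.21, limma adjusted p = 0.0041). Zscan4d had 3.26, 2.47 and 2.58 TPM in WT and 8.91, 7.76 and 8.78 TPM in DIDO3ΔCT+HADIDO3 (log2 fold change 1.49, SE 0.14, limma adjusted p = 0.00237). The groups did not overlap in any of the 3, although the near-identical copies of the cluster may share reads. In DIDO3ΔE16, Zscan4c was at 31.8, 23.6 and 23.1 TPM, above DIDO3ΔCT+HADIDO3. Gm8300, a predicted gene of a cluster on chromosome 12, had 1.89, 1.07 and 1.91 TPM in WT and 11.9, 14.9 and 17.7 TPM in DIDO3ΔCT+HADIDO3 (log2 fold change 3.05, SE 0.28, limma adjusted p = 0.0022), and its neighbours Gm2016 (4.52 to 23.9 TPM, log2 fold change 2.27, limma adjusted p = 0.000547), Gm5662 and Gm5039 formed a rising run of log2 fold changes from 1.34 to 3.56. Zfp352 (0.574 to 1.48 TPM) and Usp17lc (3.4 to 7.98 TPM) completed the calls. Summed over every feature of the list, including features that share bases, the TPM was 446 to 483 in WT and 476 to 506 in DIDO3ΔCT+HADIDO3.

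Germline and meiosis genes had 7 higher and 3 lower calls among 15 tested (median 0.62; off chromosomes 1 and 14, 5 higher and 3 lower of 13, median 0.30). In summed TPM, over 25 of these genes, 9 were higher and 4 lower, with a median of 0.14. Tdrkh, a tudor-domain partner of Piwi proteins, had 10.5, 10.3 and 11 TPM in WT and 30.4, 34.3 and 34.2 TPM in DIDO3ΔCT+HADIDO3 (log2 fold change 1.53, SE 0.07, limma adjusted p = 0.000442). Piwil2, a Piwi protein on chromosome 14, had 69.6, 67.1 and 69.5 TPM in WT and 139.7, 142 and 142 TPM in DIDO3ΔCT+HADIDO3 (log2 fold change 0.94, SE 0.03, limma adjusted p = 0.000228). Slc25a31, the germ-cell ADP/ATP carrier (1.02 to 3.13 TPM), Tuba3a, a testis tubulin (1.26 to 3.69 TPM), Mael (7.6 to 16.2 TPM), Smc1b (2.92 to 6.32 TPM, with a feature on the opposite strand) and Dazl (8.35 to 15.4 TPM) were also higher. Rhox5, a placental and germline homeobox gene, had 18, 18.8 and 17.1 TPM in WT and 6.17, 5.99 and 6.62 TPM in DIDO3ΔCT+HADIDO3 (log2 fold change -1.60, SE 0.07, limma adjusted p = 0.000425) and fell with Xlr3a and Dpep3. With C79M flow cells only, or with the flow cell family as a covariate, 6 members were called in place of 10.

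The collagen, laminin and matrix list had 6 higher and 21 lower calls among 64 tested (median -0.26). Off chromosomes 1 and 14 there were 6 higher and 20 lower calls among 58. Of the lower genes, Col4a1, Col4a2, Lamb1 and Lama1 were counted in the endoderm list too. Col1a2, a chain of fibrillar type I collagen, had 18.1, 16.7 and 20 TPM in WT and 0.229, 0.246 and 0.242 TPM in DIDO3ΔCT+HADIDO3 (log2 fold change -5.84, SE 0.12, limma adjusted p = 0.000113), and its partner chain Col1a1 had 10.2, 11.4 and 13.4 TPM in WT and 0.963, 0.957 and 1.51 TPM in DIDO3ΔCT+HADIDO3 (log2 fold change -3.36, SE 0.22, limma adjusted p = 0.000929). Col8a1, a short-chain collagen, had 8.05, 6.91 and 9 TPM in WT and 0.194, 0.051 and 0.126 TPM in DIDO3ΔCT+HADIDO3 (log2 fold change -5.29, SE 0.29, limma adjusted p = 0.000613), and Col5a2, a regulator of fibril width on chromosome 1, had 6.55, 6.01 and 6.03 TPM in WT and 0.105, 0.131 and 0.052 TPM in DIDO3ΔCT+HADIDO3 (log2 fold change -5.09, SE 0.20, limma adjusted p = 0.000318). In these genes all DIDO3ΔCT+HADIDO3 libraries were far below all WT libraries. Col12a1, a fibril-associated collagen, fell from 6.8 to 0.41 TPM (log2 fold change -3.90, limma adjusted p = 0.00137). The proteoglycan Bgn fell from 79.1 to 6.05 TPM (log2 fold change -3.78, limma adjusted p = 0.000197) and the metalloproteinase inhibitor Timp2 from 47.9 to 11.5 TPM (log2 fold change -2.14). Higher members were Col6a4 (0.178 to 1.98 TPM), Col13a1, Col5a3, Mmp2 (20.3 to 35.8 TPM), Adamts2 and Adamts7. The summed TPM of the list was 5599 to 5906 in WT and 4517 to 4859.8 in DIDO3ΔCT+HADIDO3.

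Several of these genes are also fibroblast markers. The feeder fibroblast list had 1 higher and 6 lower calls among 12 tested (median -0.69; off chromosomes 1 and 14, 1 and 6 of 11). With the flow cell covariate 1 was higher and 3 were lower, and with C79M flow cells only 1 and 4. S100a4, a calcium-binding protein of motile fibroblasts, had 2.54, 1.93 and 2.86 TPM in WT and 0.113, 0.111 and 0.229 TPM in DIDO3ΔCT+HADIDO3 (log2 fold change -3.43, SE 0.26, limma adjusted p = 0.00142), and it headed a run of 4 falling S100 genes on chromosome 3 (log2 fold changes of -3.43 to -1.17). Fbn1 (fibrillin) and Col6a1 fell from 5.96 to 2.95 TPM and from 3.15 to 0.598 TPM. Thy1, a surface glycoprotein of fibroblasts, moved the other way, with 19.4, 18.1 and 19.7 TPM in WT and 52.2, 56.1 and 55 TPM in DIDO3ΔCT+HADIDO3 (log2 fold change 1.41, SE 0.06, limma adjusted p = 0.000328). Acta2 (0.08), Tagln (-0.38) and Twist1 (0.03) were not called, and Acta2 and Tagln overlap features on the opposite strand. The receptor Pdgfrb, whose features share bases, summed to 4.99, 5.2 and 5.28 TPM in WT and 38.5, 41.8 and 38.7 TPM in DIDO3ΔCT+HADIDO3. Col1a2, Col3a1, Col6a1, Postn, Lox and Prrx1 had a mean summed TPM of at least 1 in WT and a summed TPM below 1 in all DIDO3ΔCT+HADIDO3 libraries. In DIDO3ΔE16 the 16 markers summed to 360.3 to 382 TPM. The part of feeder cells in the matrix result was not tested.

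Epithelial adhesion and tight junction genes had 2 higher and 6 lower calls among 23 (median -0.30). Cdh1, E-cadherin, which holds ESC colonies together, had 602, 582 and 596 TPM in WT and 352, 349.8 and 357 TPM in DIDO3ΔCT+HADIDO3 (log2 fold change -0.85, SE 0.02, limma adjusted p = 0.00015). Epcam, an epithelial adhesion molecule, fell from 221 to 128 TPM (log2 fold change -0.88, limma adjusted p = 0.000686). The claudins Cldn4 (505 to 133 TPM) and Cldn9 (414 to 169.6 TPM) fell and both overlap features on the opposite strand. Dsg2, a desmosomal cadherin, rose (52.2 to 93.5 TPM, log2 fold change 0.74). Among protocadherins and cadherins 2 of 15 were higher and 5 lower, including Cdh4 (5.26 to 0.796 TPM), Cdh6 (0.757 to 0.097 TPM) and the endothelial Cdh5 (0.444 to 0.0977 TPM) among the lower and Cdh22 (0.269 to 2.58 TPM) among the higher. Of 13 ephrins and Eph receptors 3 were higher and 3 lower, with Epha4 on chromosome 1 rising from 6.35 to 24 TPM (log2 fold change 1.81, limma adjusted p = 0.00034) and Epha2 falling from 254 to 124 TPM (log2 fold change -1.13, limma adjusted p = 0.000512). Of 14 semaphorins and plexins 2 were higher and 2 lower (0 and 2 with the flow cell covariate), and the coreceptor Nrp1 fell from 2.73 to 0.217 TPM (log2 fold change -3.23, limma adjusted p = 0.000502). In the trophoblast list 0 of 13 were higher and 3 lower, among them the surface protein Plet1 with 37.9, 37.9 and 37 TPM in WT and 9.97, 10.3 and 9.39 TPM in DIDO3ΔCT+HADIDO3 (log2 fold change -2.01, SE 0.07, limma adjusted p = 0.000222). Fgfr2, another of the lower genes, was counted in the FGF list too. With C79M flow cells only, 0 trophoblast genes were higher and 1 lower, and without scaling 1 was higher and 2 lower.

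Ion channels had 16 higher and 3 lower calls among 62 tested (median 0.46; off chromosomes 1 and 14, 15 and 3 of 57). The voltage-gated potassium channel Kcnc1 had 0.387, 0.225 and 0.198 TPM in WT and 1.99, 1.69 and 2.56 TPM in DIDO3ΔCT+HADIDO3 (log2 fold change 2.49, SE 0.27, limma adjusted p = 0.00341). Its relative Kcnc4 had 0.924, 1.07 and 1.31 TPM in WT and 3.24, 4.92 and 4.48 TPM in DIDO3ΔCT+HADIDO3 (log2 fold change 1.74, SE 0.22, limma adjusted p = 0.00551). The inward rectifier Kcnj10, on chromosome 1, had 1.98, 1.74 and 1.39 TPM in WT and 6.87, 7.08 and 8.49 TPM in DIDO3ΔCT+HADIDO3 (log2 fold change 1.99, SE 0.16, limma adjusted p = 0.00168). These channels were low in WT and higher in every DIDO3ΔCT+HADIDO3 library. In the other direction, the sodium channel subunit Scn2b had 9.64, 8.79 and 8.97 TPM in WT and 0.951, 0.704 and 0.966 TPM in DIDO3ΔCT+HADIDO3 (log2 fold change -3.35, SE 0.15, limma adjusted p = 0.000422). The number called dropped from 19 to 12 with a pseudocount of 1 and to 9 with C79M flow cells only. In summed TPM over each gene, 113 channel genes could be tested, and 26 were higher and 7 lower (median 0.19).

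Of 41 kinesins and dyneins, the microtubule motors, 6 were higher and 1 lower (median 0.09). Kif26a, an atypical kinesin, had 13.8, 11 and 13.4 TPM in WT and 41.9, 46.5 and 48.9 TPM in DIDO3ΔCT+HADIDO3 (log2 fold change 1.75, SE 0.11, limma adjusted p = 0.000895). The axonemal heavy chains Dnah2 and Dnah8 rose from 1.08 to 4.39 TPM and from 1.16 to 5.38 TPM (log2 fold changes 1.86 and 2.05, the latter at 42.6% of the TPM of the gene). Dynlt1b (47.1 to 263 TPM) and the ciliary kinesin Kif19a (0.758 to 5.53 TPM) rose and overlap features on the opposite strand. Actin cytoskeleton and associated GTPase genes had 13 higher and 7 lower calls among 79 (median 0.05). Myl9, a regulatory light chain of smooth muscle and nonmuscle myosin, had 14.7, 21.1 and 18.3 TPM in WT and 3.87, 2.63 and 4.03 TPM in DIDO3ΔCT+HADIDO3 (log2 fold change -2.43, SE 0.23, limma adjusted p = 0.0024), whereas the atrial light chain Myl7 rose from 0.897 to 3.89 TPM (log2 fold change 1.98, limma adjusted p = 0.00984). Actb, cytoplasmic beta-actin, fell from 716 to 389 TPM (log2 fold change -0.98). Leaving out WT 1 reduced the calls of this list from 20 to 13, and with C79M flow cells only 12 were made.

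Replication-dependent histone genes, whose mRNAs normally end in a stem-loop and not in a poly(A) tail, had 9 higher and 0 lower calls among 30 tested (median 0.85), and none of the 9 lies on chromosome 1 or 14. Hist1h1c, a linker histone, had 9.42, 10.2 and 10.5 TPM in WT and 36.7, 32.7 and 30.8 TPM in DIDO3ΔCT+HADIDO3 (log2 fold change 1.63, SE 0.11, limma adjusted p = 0.000902). Hist2h3c1, an H3 gene, had 2.12, 2.64 and 2 TPM in WT and 7.59, 6.42 and 10.2 TPM in DIDO3ΔCT+HADIDO3 (log2 fold change 1.69, SE 0.21, limma adjusted p = 0.00534). Hist3h2ba, an H2B gene, had 0.644, 1.03 and 0.836 TPM in WT and 5.22, 5.53 and 6 TPM in DIDO3ΔCT+HADIDO3 (log2 fold change 2.53, SE 0.20, limma adjusted p = 0.00143). All 3 were higher in every DIDO3ΔCT+HADIDO3 library. Summed over all 54 genes of the list the TPM was 244, 256 and 247 in WT, 464, 455 and 469 in DIDO3ΔCT+HADIDO3, and 298, 316 and 307 in DIDO3ΔE16. Of single genes, 4 were called with C79M flow cells only, 5 with the flow cell family as a covariate and 5 without DIDO3ΔCT+HADIDO3 replicate 2. In summed TPM, which could be tested in 46 histone genes, 16 were higher and 1 lower (median 0.84).

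The ATF4 and amino acid stress list had 1 higher and 4 lower calls among 15 (median -0.43), none on chromosome 1 or 14. Cth, the cysteine-producing cystathionine gamma-lyase, had 92.3, 103 and 96.2 TPM in WT and 24.2, 25 and 25.2 TPM in DIDO3ΔCT+HADIDO3 (log2 fold change -2.06, SE 0.06, limma adjusted p = 0.000147), and Chac1, which degrades glutathione, had 30.3, 33.5 and 33.8 TPM in WT and 12.8, 13 and 12 TPM in DIDO3ΔCT+HADIDO3 (log2 fold change -1.46, SE 0.08, limma adjusted p = 0.000642). Trib3, a feedback pseudokinase, and Sesn2, a leucine sensor, fell from 81.9 to 38.4 TPM and from 322 to 174 TPM. Slc7a11, the cystine importer, went against the list, with 3.28, 4.33 and 3.4 TPM in WT and 10.3, 10.3 and 10 TPM in DIDO3ΔCT+HADIDO3 (log2 fold change 1.37, SE 0.13, limma adjusted p = 0.00262). The NRF2 list had 2 higher and 5 lower calls among 20 (median -0.38), and the quinone reductase Nqo1 had 67, 54.7 and 59.5 TPM in WT and 26.2, 28.6 and 27.2 TPM in DIDO3ΔCT+HADIDO3 (log2 fold change -1.23, SE 0.09, limma adjusted p = 0.00111). G6pdx (158 to 89.6 TPM) and Srxn1 (152 to 86.7 TPM) were among the lower members, and at a threshold of 1 on the log2 scale 2 calls of this list were made. The p53 target list had 1 higher and 3 lower of 17, with Tigar (overlapped by an antisense feature), Sesn2 and Pmaip1 lower and Gdf15 higher (1.98 to 4 TPM); without DIDO3ΔCT+HADIDO3 replicate 1 or 2, or with the flow cell covariate, 2 members were called. Interferon-stimulated and innate sensing genes were split, with 4 higher and 4 lower of 13 (median 0.57; in summed TPM 7 and 4 of 25, median 0.16). Ifitm3 had 51.5, 63.2 and 60.8 TPM in WT and 22.9, 24.9 and 22.9 TPM in DIDO3ΔCT+HADIDO3 (log2 fold change -1.40, SE 0.10, limma adjusted p = 0.00123), and Ifit2 had 1.82, 1.38 and 1.18 TPM in WT and 3.02, 4.25 and 3.86 TPM in DIDO3ΔCT+HADIDO3 (log2 fold change 1.20, SE 0.21, limma adjusted p = 0.0148). Without scaling this list had 4 higher and 2 lower calls, and with C79M flow cells only 5 in all. Unfolded protein response and chaperone genes had 3 higher and 1 lower of 22 (median -0.16). The higher ones were Dnajc3 on chromosome 14 (51.3 to 145 TPM) and Pdia6 (8.48 to 15.7 TPM), which both overlap antisense features, and Ern1 at a feature with 6.9% of its TPM (0.22 in the sum). In summed TPM 2 were higher and 1 lower of 32. Of 17 hypoxia-inducible genes 1 was higher, P4ha2 (13.6 to 27.7 TPM), and 0 were lower.

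Shares of calls varied among large gene families. Of 193 zinc finger genes of the Zfp family 12 were higher and 20 lower (median -0.16), with Zfp990 (180.0, 169 and 135 TPM in WT and 544, 563 and 643 TPM in DIDO3ΔCT+HADIDO3, log2 fold change 1.77, SE 0.12, limma adjusted p = 0.00107) and Zfp619 (7.95, 8.84 and 6.12 TPM in WT and 1.6, 1.9 and 1.96 TPM in DIDO3ΔCT+HADIDO3, log2 fold change -2.09, SE 0.17, limma adjusted p = 0.00163) at the ends; 14 calls were made with C79M flow cells only. Of 159 solute carriers 18 were higher and 16 lower (median 0.02; off chromosomes 1 and 14, 12 and 14 of 143, median -0.05; with C79M flow cells only, 11 and 11). The glucose cotransporter Slc5a1 fell from 3.47 to 0.503 TPM (log2 fold change -2.67, limma adjusted p = 0.001), the anion exchanger Slc26a9 on chromosome 1 rose from 1.04 to 6.55 TPM (log2 fold change 2.43, limma adjusted p = 0.00152), and the glutamine transporters Slc38a2 (334 to 136 TPM) and Slc1a5 (198 to 99.6 TPM) fell. Of 40 forkhead and Sox factors 3 were higher and 8 lower, with Foxi3 (37.4 to 11.3 TPM) and Foxq1 (7.33 to 1.6 TPM) among the lower and Foxo6 (8.68 to 30.6 TPM) among the higher. With C79M flow cells only 1 forkhead or Sox factor was higher and 3 were lower, and with the flow cell covariate 3 and 3; for Foxo3, 1 of the 8, the call rested on a feature with 1.16% of its TPM and turned to 0.60 in the sum. Of 17 Hox genes, all low in WT (a mean of at most 5.46 TPM), 3 were higher and 1 lower; Hoxc13 had 5.61, 5.23 and 5.54 TPM in WT and 14.1, 14.7 and 15.6 TPM in DIDO3ΔCT+HADIDO3 (log2 fold change 1.32, SE 0.07, limma adjusted p = 0.000613). Of 28 tripartite motif genes 5 were higher and 0 lower; for Trim2 the call rested on a feature with 4.86% of its TPM and turned to -0.09 in the sum. Of 46 histone lysine methyltransferases and demethylases 5 were higher and 2 lower (2 and 2 with C79M flow cells only), and 2 of the higher ones, Prdm14 and Hr, lie on chromosomes 1 and 14.

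Gene lists tied to the known roles of DIDO3 had few calls. Of 37 genes of mRNA 3′ end processing and termination limma called 0 in either direction at the most abundant feature, and over their 47 features 0 were higher and 2 lower; 16 had an unadjusted p under 0.05 (5 higher and 11 lower), the median was -0.08 and the log2 fold changes ran from -0.55 to 0.51. Pabpc1, the main cytoplasmic poly(A)-binding protein, had 341, 261 and 333 TPM in WT and 320.1, 337 and 340.0 TPM in DIDO3ΔCT+HADIDO3 (log2 fold change 0.01, SE 0.11, limma adjusted p = 0.981). Of 36 spliceosome and splicing factors 1 was called lower, the epithelial splicing regulator Esrp1 (17.1, 16.2 and 15.4 TPM in WT and 3.94, 5.63 and 5.99 TPM in DIDO3ΔCT+HADIDO3, log2 fold change -1.74, SE 0.17, limma adjusted p = 0.00252, at 23.8% of the TPM of the gene). The median of the splicing list was -0.23, and 33 of the 36 genes had a log2 fold change below 0. In limma 19 of the 36 had an unadjusted p under 0.05 (1 higher and 18 lower). Of 28 R-loop and DNA damage response genes 1 was higher, the helicase gene Blm, at a feature with 48.4% of its TPM (0.94, against 0.10 in the sum). The median of these 28 genes was -0.17, and 19 had an unadjusted limma p under 0.05 (5 higher and 14 lower). In summed TPM, over 46 genes of the list, 1 was higher and 3 were lower. Of the 6 tested relatives of DIDO with TFIIS or SPOC domains limma called 0, and 4 had an unadjusted p under 0.05 (1 higher and 3 lower); without scaling 1 was called. Of 27 RNA polymerase II and general transcription factor genes 1 was higher and 1 lower, Polr2c and Polr2b, both of which overlap features on the opposite strand. With C79M flow cells only, 0 genes of this list were higher and 2 lower, and with the flow cell covariate 0 and 3. Of 26 DNA replication genes 1 was lower, Pold2 (31.5 to 4.84 TPM), which also overlaps a feature on the opposite strand. Of 40 DEAD and DEAH box helicases 2 were higher and 3 lower (median -0.22), and of 19 mediator subunits 0 were higher and 2 lower, Med29 (15.3 to 5.38 TPM) and Med11 (9.39 to 6.09 TPM, with a feature on the opposite strand). With C79M flow cells only 1 helicase was higher and 1 lower.

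Housekeeping lists also had few calls. Limma called 0 of 28 proteasome subunits (14 at an unadjusted p under 0.05, 2 higher and 12 lower), 0 of 17 nuclear pore genes (9, all lower) and 0 of 13 cholesterol synthesis genes (9, 5 higher and 4 lower). These counts are at the most abundant feature of each gene; among all features, 1 of 27 of nuclear pore genes and 1 of 15 of cholesterol synthesis genes were higher. With quantile normalization 1 proteasome subunit was called. Of 48 cytosolic ribosomal protein genes 2 were higher and 2 lower, of 53 mitochondrial ones 2 were higher, and of 63 oxidative phosphorylation subunits 2 were higher and 2 lower. With C79M flow cells only or with the flow cell covariate, 0 mitochondrial ribosomal protein genes were called. Rplp1, a stalk protein of the large ribosomal subunit, had 56.9, 55 and 58.1 TPM in WT and 27, 28 and 24.3 TPM in DIDO3ΔCT+HADIDO3 (log2 fold change -1.19, SE 0.08, limma adjusted p = 0.000916), and ribosomal protein genes have many processed copies to which reads may align. Of 32 cyclins and cyclin-dependent kinases 1 was higher and 3 lower, with Ccnd2, a G1 cyclin, at 37.1, 37 and 38.1 TPM in WT and 11.9, 11.7 and 11.5 TPM in DIDO3ΔCT+HADIDO3 (log2 fold change -1.76, SE 0.06, limma adjusted p = 0.000228). The higher one was Rb1, the retinoblastoma gene on chromosome 14 (41.1 to 77.4 TPM, log2 fold change 0.82, limma adjusted p = 0.00258). With C79M flow cells only or with the flow cell covariate 0 of these genes were higher and 2 lower, and in summed TPM, over 65 genes of the list, 6 were higher and 6 lower.

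Levels in DIDO3ΔE16 place some of these genes against the other mutant. Between DIDO3ΔCT+HADIDO3 and DIDO3ΔE16 limma called 3264 of 10695 features (30.5%), in a fit over all 9 libraries. Col1a2 had 36.5, 39.2 and 38.9 TPM in DIDO3ΔE16, above WT, and differed from DIDO3ΔCT+HADIDO3 by -6.84 on the log2 scale (limma adjusted p = 5.1e-08). Grem1 had 29.8, 27.4 and 31.8 TPM, likewise above WT, with a difference of -6.69 (limma adjusted p = 1.84e-06). Both genes were highest in DIDO3ΔE16 and lowest in DIDO3ΔCT+HADIDO3. BB014433 had 0.157, 0.305 and 0.107 TPM in DIDO3ΔE16, near its WT level, with a difference of 6.63 (limma adjusted p = 6.75e-06), and Kbtbd11 had 7.09, 14.8 and 12.6 TPM, with a difference of 2.56 (limma adjusted p = 0.000188). Srgn had 4.26, 3.97 and 3.48 TPM, between the other groups, with a difference of -2.30 (limma adjusted p = 0.000146). Sox7 had 3.24, 4.79 and 4.72 TPM and Fos had 32.2, 29 and 28.1 TPM, below WT as in DIDO3ΔCT+HADIDO3, with differences of -0.08 and -0.03 (limma adjusted p = 0.755 and 0.871).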

How the data were processed

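RNA-seq libraries of WT (3), DIDO3ΔCT+HADIDO3 (3) and DIDO3ΔE16 (3) ESC were analysed. Per the file headers and the submitters' processing notes, reads were aligned by the authors with BWA (0.7.15) to the mm10 build, and StringTie (1.3.3) quantified UCSC 3′UTRs extended by 2 kb. The TPM values were deposited by the authors without scaling between libraries, and the coverage per base deposited with the other attributes was used for depth only. The header names no strand option. The authors used edgeR, which needs read counts; as TPM are not counts, limma (3.58.1, R 4.3.3) was used here on log2(TPM + 0.1), with trend and robust estimation and Benjamini-Hochberg adjustment over all 24720 tested features of the table, after scaling by a trimmed mean of log2 ratios (30% off each end). Non-sharing features were then read out. Python (3.11.15), numpy (2.4.6), pandas (2.3.3) and matplotlib (3.10.9) made the summaries, and 0 sample columns were left unmapped. The procedure was tested on simulated data.

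Calls required a shift by 0.7 or more on the log2 scale, up or down, and an adjusted p below 0.05. The genes named were Dido1, the 12 largest changes in each direction off chromosomes 1 and 14 and the 4 largest on them (groups not overlapping, and 1 TPM or more on average in WT or the mutant), up to 4 called members of each list or else the most abundant one, and cell type markers; other members and neighbours were chosen after their values were seen. A few genes that met these rules are not reported here. The members and the 72 lists were chosen with earlier results of these data known; Rhox genes, Kcnq1ot1 and methyltransferase symbols caught by family patterns were removed after the data were seen. Features lacking a value above 0 in any of the 6 libraries were not tested. With 3 libraries against 3, an exact permutation test of a single value cannot give p below 0.1. Alternatives were pseudocounts, filters, scaling, covariates, blocks, thresholds and leaving out each library; gene sums and leaving out chromosomes X and Y were added after the data were seen. 3′ ends were matched to GENCODE M21 transcripts. Sequences of proteins were not used here.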

Additional observations from a re-analysis of the deposited data

How the results depend on the processing

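Of the 2063 called features, pseudocounts, filters, scaling and leaving out each library kept the count within 1.5-fold (1648 to 1879 with 1 library left out). For features called off chromosomes 1 and 14 (1805) the range was 1441 to 1649. With the flow cell family as a covariate 1416 features were called on all chromosomes, 1258 of them also among the 2063. The count of 2063 was 1178 with C79M flow cells only, 1335 at an adjusted p under 0.01 and 1372 at a log2 fold change of at least 1; off chromosomes 1 and 14 these were 1013, 1159 and 1203, and 1731 without chromosomes X and Y, an alternative added after the data were seen. With the replicate number as a block 1126 features were called (964 off chromosomes 1 and 14), 1080 of them also without it. This block left WT 4 without a partner, so that WT 4 did not enter the difference between the groups. It set DIDO3ΔCT+HADIDO3 replicates 2 and 3 against WT 2-3. Same-numbered libraries of the groups did not deviate together (correlations of -0.06, -0.023 and 0.005), so the numbers are no pairing. How much of the lower counts came from this layout was not tested. Without scaling the median of all features was 0.11 and 68.7% of calls were higher, against 60.5%. The median of chromosome 1 (0.31) was 0.32 with a pseudocount of 0.01 or with 3 of 6 libraries above 0, 0.24 with a pseudocount of 1, 0.33 with a mean of at least 1 TPM or quantile normalization, 0.40 without scaling, 0.29 with the flow cell family as a covariate, and 0.29 to 0.32 with 1 library left out. That of chromosome 14 (0.06) was 0.04 with a pseudocount of 1, 0.08 with 3 of 6 libraries above 0, 0.15 without scaling, 0.08 with quantile normalization, 0.03 with the flow cell covariate or C79M flow cells only, 0.10 without overlaps on either strand and 0.05 to 0.09 with 1 library left out. Of the 254 called genes chosen by the rules or after their values were seen, 78 lost the call with C79M flow cells only, 68 with the block, 61 with the flow cell covariate and 19 to 33 with 1 library left out; gene sums turned Chd9 to 0.16 and Trim2 to -0.09, and no other of these genes changed sign. Among other called list members, gene sums turned Kif1b (the lower kinesin, -0.71) to 0.34, Foxo3 to 0.60, Arhgap44 to -0.10, Slc23a2 to -0.06 and Slc39a8 to 0.03. Calls between the mutant groups were lost for 6 named genes with those 6 libraries alone and for 20 with the block.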

Other observations

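Some non-sharing features averaging 1 TPM or more in a group could not be tested because a library was listed at 0: 38 on the lower side, of which 14 were at 0 in all DIDO3ΔCT+HADIDO3 libraries, and 31 on the higher side, of which 4 were at 0 in all WT libraries. Olig2, the neighbour of Olig1 and a factor of motor neurons and oligodendrocytes, had 86.1, 96 and 86 TPM in WT and 0, 0.143 and 0.059 TPM in DIDO3ΔCT+HADIDO3, against 44.3, 48.2 and 57.8 TPM in DIDO3ΔE16. Inhba, the activin A subunit, had 25.1, 26.6 and 23.8 TPM in WT and 0, 0.114 and 0.094 TPM in DIDO3ΔCT+HADIDO3, and its DIDO3ΔE16 levels were 55.6, 64.1 and 64.5 TPM. Cavin2, a caveolar coat protein, had 6.85, 7.33 and 7.66 TPM in WT and was listed at 0 in all DIDO3ΔCT+HADIDO3 libraries. Gc and Afm, albumin-family genes of the liver, had 3.5, 4.53 and 4.7 TPM and 3.71, 3.92 and 3.74 TPM in WT and were listed at 0 in DIDO3ΔCT+HADIDO3; Gc was at 0 in DIDO3ΔE16 as well.

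On the higher side, Rfx8, a gene of the regulatory factor X family on chromosome 1, had 0.028, 0.134 and 0 TPM in WT and 11.1, 10.4 and 13.5 TPM in DIDO3ΔCT+HADIDO3. Isl1, a LIM homeodomain factor of heart and motor neuron progenitors, had 0.188, 0.151 and 0 TPM in WT and 3.81, 3.42 and 4.61 TPM in DIDO3ΔCT+HADIDO3. Gm6356, a predicted gene on chromosome 14, was at 0 in all WT libraries and at 4.51, 5.67 and 5.3 TPM in DIDO3ΔCT+HADIDO3. None of these values was tested, and an exact 0 in this table may be a failed estimate.

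Neighbouring genes also moved together off chromosomes 1 and 14. The kallikrein genes Klk13, Klk12, Klk10, Klk9 and Klk8, serine proteases in a cluster on chromosome 7, formed a run of 5 called features with log2 fold changes of 0.85 to 2.29; Klk10 had 2.38, 2.06 and 3.95 TPM in WT and 9.06, 9.02 and 10.4 TPM in DIDO3ΔCT+HADIDO3 and Klk8 1.16, 1.33 and 1.38 TPM in WT and 2.6, 3.18 and 2.66 TPM in DIDO3ΔCT+HADIDO3. On the X chromosome Pnma5, Pnma3, Xlr4a and Xlr3a formed a run of 4 lower features (-5.77 to -1.92), and the related genes Xlr5a and Xlr5b had 5.18, 5.59 and 7.05 TPM and 6.34, 6.3 and 5.13 TPM in WT against at most 0.085 and 0.126 TPM in DIDO3ΔCT+HADIDO3. In DIDO3ΔE16 Xlr5a had 58, 51.2 and 49 TPM.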
